A study of Homo sapiens with 8 samples.

Results

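Translation initiation factors (the EIF genes) were followed at the RNA level in A673 cells, an established human Ewing sarcoma line, after treatment with JIB-04, an inhibitor of the Jumonji family of histone demethylases. Genes were taken as members by their symbols, for the factors eIF1 to eIF6 and their subunits, and the rule took 49 of 65962 genes. Of these, 48 are described and 1, a Y-linked gene, is counted only. The comparison set 4 libraries of cells that received 2 µM JIB-04 for 36 h against 4 libraries of cells that received the vehicle for the same time, all from the 1 line in the same growth medium, with polyadenylated RNA sequenced from a strand-specific preparation. The values are FPKM (fragments per kilobase of transcript, per mapped fragments of the library), a level scaled for gene length and library size. The methods give the treatment of each group as done in quadruplicate, without saying whether the cultures were set up on separate occasions, so the p-values describe the spread among these 4 treated samples a group. Errors after ± are standard errors of the fit. In bulk RNA, fewer cells of a kind and less RNA per cell cannot be told apart.

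Initiation factors bring the small ribosomal subunit, the initiator tRNA and the mRNA together at a start codon. The eIF4 factors recognise the 5′ cap and unwind the leader, eIF2 carries the initiator tRNA as a complex with GTP, eIF2B recharges eIF2, eIF3 organises the small subunit, eIF1 and eIF1A guard the choice of the start codon, and eIF5 and eIF5B release the factors and join the large subunit. Phosphorylation of the alpha subunit of eIF2 and the binding of eIF4E by the 4E-binding proteins are the textbook brakes on the process, and tumour cells commonly keep these genes at high levels.

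The 8 libraries summed to 1346290 to 1370440 FPKM with vehicle and 1175410 to 1237190 FPKM with JIB-04, and mitochondrial mRNA took 9.60 to 10.2% and 3.60 to 4.33% of these sums. Absolute depth is unknown, and the value of 1 fragment put relative depth at 0.767 to 1 of vehicle replicate 1. Of 6 Ewing sarcoma markers, all were expressed, at 58.4 FPKM or more in every library, and their summed level was 1775 to 1831 FPKM with vehicle and 1069 to 1172 FPKM with JIB-04. Most of the sum was CD99, with means of 1160 FPKM with vehicle and 599 FPKM with JIB-04. NKX2-2, STEAP1 and PRKCB also had lower means with JIB-04. The markers did not all fall, since means rose from 60.4 to 71.3 FPKM for FLI1 and from 111 to 124 FPKM for NR0B1. Of 7 markers of other cell types, 6 stayed at or below 1.68 FPKM in every library, and the lowest was at 0. CD68, a lysosomal protein of macrophages, rose from a mean of 0.573 to 22.2 FPKM, so that the summed level of the 7 markers was 1.12 to 2.08 FPKM with vehicle and 22.1 to 25.2 FPKM with JIB-04. The part of these differences in the results on the initiation factors was not tested.

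Initiation factor genes were among the more abundant genes of these cells and moved in both directions. Of the 47 tested, those that averaged 1 FPKM or more, 46 lay above the median level of all genes tested and 26 in the top 10%. With JIB-04, 21 rose, 15 fell and 11 did not pass the test (limma on log2(FPKM + 0.5), adjusted p under 0.05). The 36 that changed were 76.6% of those tested, against 72.2% of all genes tested and 79.2% of those averaging 5 FPKM or more, so the share of changed members was near the background. By direction, 44.7% of members rose against 34.2% of all genes, and 31.9% fell against 38.0%. The changes were small beside those of all genes: 3 members changed at least 2-fold, against 24.9% of all genes tested. The median size of the log2 fold change was 0.42 for members, 0.58 for all genes and 0.56 for those averaging 5 FPKM or more. Members had a median level percentile of 93.8, and genes of matched level were not compared. The signed median was 0.10 for members and -0.066 for all genes, and no test was made of these differences. Vehicle and JIB-04 libraries did not overlap for 35 members, against 67.3% of all genes tested.

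The balance of directions depended on the scaling. Rescaling each library to TPM, in which every library has the same total, moved the median of all genes by 0.147 on the log2 scale. In TPM 28 members rose and 10 fell, with backgrounds of 40.4% and 31.1%. Median-ratio scaling gave 22 members higher and 12 lower, with 3 calls lost and 1 gained. On that scale 6329 of all 17460 genes were higher and 6186 lower. Summed over the members, initiation factors took 1.15 to 1.20% of all FPKM in the vehicle libraries and 1.49 to 1.53% in the JIB-04 libraries. Directions below are on the FPKM scale, and called members that turned or lost their call in TPM are named where they occur.

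**Figure D1:**
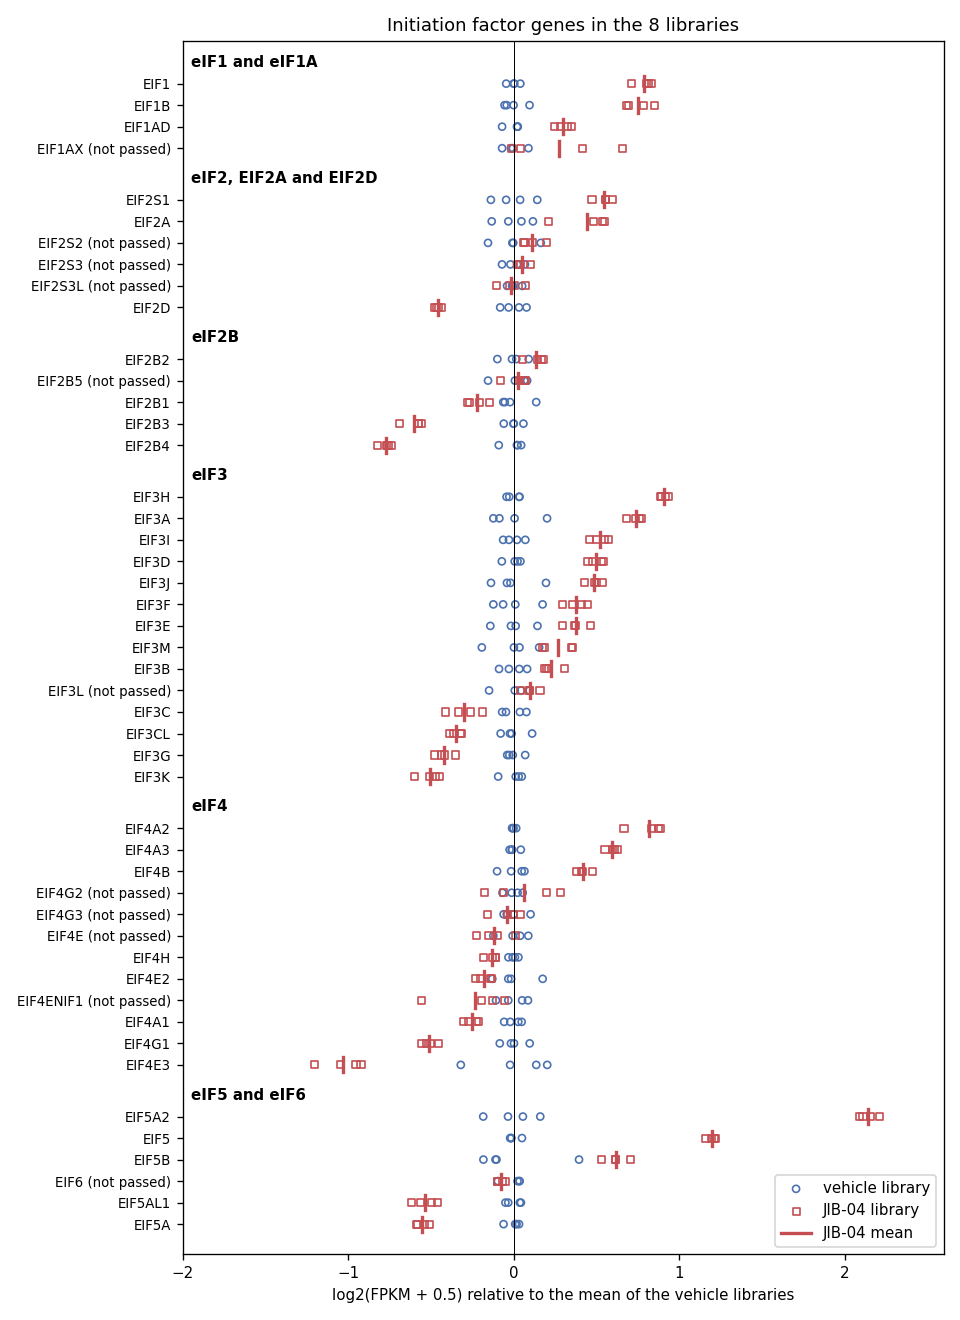
Level of each initiation factor gene tested in each library, as log2(FPKM + 0.5) minus the mean of the 4 vehicle libraries, ordered within groups. Open circles are vehicle libraries, open squares JIB-04 libraries and bars the JIB-04 means. EIF5A2 (2.14) and EIF5 (1.20) lie farthest to the right and EIF4E3 (-1.03) farthest to the left.

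**Figure D2:**
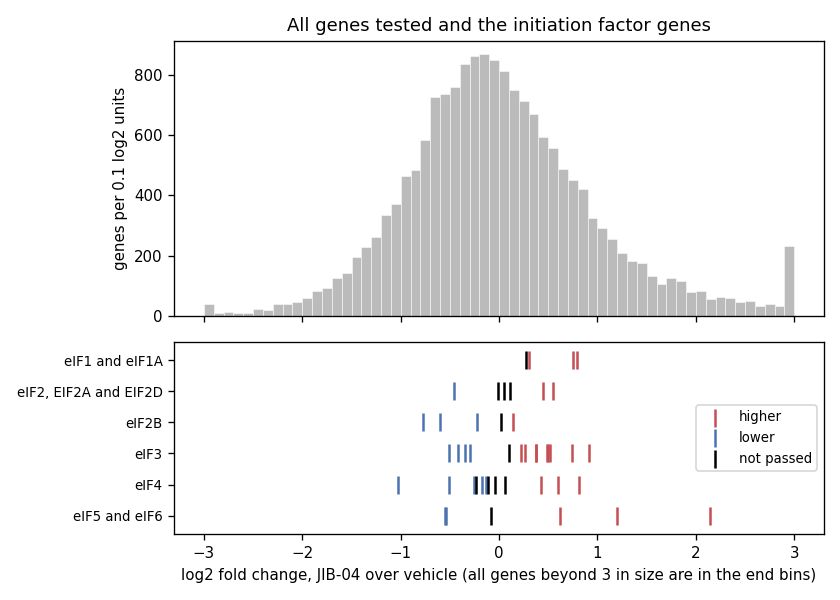
Log2 fold changes of all 17460 genes tested (upper panel, number of genes per 0.1 log2 units, values beyond 3 in size in the end bins) and of the 47 initiation factor genes (lower panel, 1 tick a gene, coloured by call). The members spread on both sides of 0 within the bulk of all genes. On the FPKM scale 21 rose and 15 fell, and in TPM 28 rose and 10 fell.

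Of the 4 genes tested in the eIF1 and eIF1A group, EIF1, EIF1B and EIF1AD rose, EIF1AX did not pass in FPKM, and none fell, where 34.2% of all genes rose. EIF1, which keeps the scanning subunit in its open state, was at 625, 609, 589 and 608 FPKM in the vehicle libraries and 1084, 1062, 994 and 1069 FPKM in the JIB-04 libraries. EIF1 rose, with every JIB-04 library above every vehicle library (log2 fold change 0.79 ± 0.037 by limma, adjusted p = 9.54e-08). EIF1B, a close relative of EIF1, was at 53.3, 57.00, 51.8 and 51.3 FPKM in the vehicle libraries and 86.5, 85.7, 92.1 and 96.4 FPKM in the JIB-04 libraries. EIF1B rose, with every JIB-04 library above every vehicle library (log2 fold change 0.75 ± 0.056 by limma, adjusted p = 1.79e-06). EIF1AD, a protein with an eIF1A-like domain, was at 81.9, 81.7, 81.9 and 76.7 FPKM in the vehicle libraries and 95.7, 97.9, 103 and 101 FPKM in the JIB-04 libraries. EIF1AD rose, with every JIB-04 library above every vehicle library (log2 fold change 0.30 ± 0.043 by limma, adjusted p = 0.000161). EIF1AX, the X-linked eIF1A that works with eIF1 during scanning, was at 48.8, 46.99, 49.2 and 52.5 FPKM in the vehicle libraries and 48.99, 50.8, 78.1 and 66.1 FPKM in the JIB-04 libraries. The EIF1AX libraries overlapped, with JIB-04 replicates 3 and 4 above the rest, and it did not pass the test (log2 fold change 0.28 ± 0.14 by limma, adjusted p = 0.0993), though it did in TPM, and without JIB-04 replicate 1 (0.37, limma adjusted p = 0.032). The summed level of the group was 772 to 809 FPKM with vehicle and 1267 to 1332 FPKM with JIB-04.

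EIF1AX was the member with the largest share of its summed level in a copy. The entry EIF1AXP1, a processed pseudogene, held a mean of 469 FPKM against 55.2 FPKM for EIF1AX, so 89.5% of the sum was credited to the copy. With the copies added to the parent gene, EIF1AX passed the test upward (log2 fold change 0.21, limma adjusted p = 0.00379).

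Among the genes of eIF2 itself, the alpha subunit rose while the beta and gamma subunits did not pass the test in FPKM and passed it upward in TPM. EIF2S1, the alpha subunit that stress kinases phosphorylate, was at 408, 462, 435 and 496 FPKM in the vehicle libraries and 661, 624, 659 and 680.3 FPKM in the JIB-04 libraries. EIF2S1 rose, with every JIB-04 library above every vehicle library (log2 fold change 0.55 ± 0.06 by limma, adjusted p = 2.57e-05). EIF2S2, the beta subunit, was at 92.7, 103, 103 and 116 FPKM in the vehicle libraries and 118, 108, 108 and 112 FPKM in the JIB-04 libraries. The EIF2S2 libraries overlapped (log2 fold change 0.11 ± 0.068 by limma, adjusted p = 0.175). EIF2S3, the X-linked gamma subunit that binds GTP, gave a log2 fold change 0.05 ± 0.04 by limma, adjusted p = 0.295, and its near-identical relative EIF2S3L gave a log2 fold change -0.013 ± 0.047 by limma, adjusted p = 0.813. Without vehicle replicate 4, EIF2S2 passed the test (0.16, limma adjusted p = 0.030). In TPM, EIF2S3L turned from a negative to a positive value and passed the test. Reads of EIF2S3 and EIF2S3L could be split between them, since the 2 share sequence, and both are uncertain.

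The alternative carriers of initiator tRNA moved apart. EIF2A, a single-chain factor distinct from the eIF2 alpha subunit, was at 119, 135, 128 and 141 FPKM in the vehicle libraries and 183, 151.2, 191 and 189 FPKM in the JIB-04 libraries. EIF2A rose, with every JIB-04 library above every vehicle library (log2 fold change 0.45 ± 0.084 by limma, adjusted p = 0.00102). EIF2D, a factor for unconventional initiation and for recycling of the small subunit, was at 41.6, 43.4, 44.8 and 40.1 FPKM in the vehicle libraries and 30.8, 30.6, 30.4 and 31.2 FPKM in the JIB-04 libraries. EIF2D fell, with every JIB-04 library below every vehicle library (log2 fold change -0.46 ± 0.05 by limma, adjusted p = 2.58e-05). The summed level of eIF2, EIF2A and EIF2D genes was 969 to 1124 FPKM with vehicle and 1229.8 to 1345 FPKM with JIB-04.

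Subunits of eIF2B, the exchange factor that reloads eIF2 with GTP, moved both ways, with 3 of 5 lower, 1 higher and 1 that did not pass in FPKM, and 2 higher and 2 lower in TPM. Among all genes, 38.0% were lower and 34.2% higher in FPKM. EIF2B4, the delta subunit of the regulatory core, was at 79.4, 80.6, 79.2 and 73.4 FPKM in the vehicle libraries and 45.9, 46.7, 44.03 and 45.7 FPKM in the JIB-04 libraries. EIF2B4 fell, with every JIB-04 library below every vehicle library (log2 fold change -0.77 ± 0.046 by limma, adjusted p = 4.64e-07). EIF2B3, the gamma subunit of the catalytic arm, was at 68.1, 73.9, 70.9 and 71.00 FPKM in the vehicle libraries and 47.5, 43.8, 47.4 and 47.98 FPKM in the JIB-04 libraries. EIF2B3 fell, with every JIB-04 library below every vehicle library (log2 fold change -0.60 ± 0.048 by limma, adjusted p = 3.19e-06). EIF2B1, the alpha subunit of the regulatory core, was at 69.2, 78.98, 70.7 and 68.7 FPKM in the vehicle libraries and 59.5, 59.1, 64.9 and 62.2 FPKM in the JIB-04 libraries. EIF2B1 fell by a small amount (log2 fold change -0.22 ± 0.058 by limma, adjusted p = 0.00641), and the call was lost in TPM. EIF2B2, the beta subunit, was at 137, 147, 139 and 129 FPKM in the vehicle libraries and 155, 152, 143 and 156 FPKM in the JIB-04 libraries. EIF2B2 libraries overlapped, and the gene passed the test upward (log2 fold change 0.14 ± 0.05 by limma, adjusted p = 0.0324), a call that leaving out any of 6 libraries ended (limma adjusted p 0.057 to 0.082 without vehicle replicates 1, 3 or 4 or JIB-04 replicates 1, 2 or 4). EIF2B5, the catalytic epsilon subunit, gave a log2 fold change 0.024 ± 0.062 by limma, adjusted p = 0.745 in FPKM and passed upward in TPM. Summed over the 5 subunits, the level was 439 to 493 FPKM with vehicle and 410.2 to 425 FPKM with JIB-04.

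eIF3, the largest of the factors, had 14 entries, of which 9 rose, 4 fell and 1 did not pass. The background was 34.2% of all genes higher and 38.0% lower, and no test was made of these shares. Their mean levels ran from 16.8 FPKM for EIF3CL to 1421 FPKM for EIF3M. EIF3H, a subunit with an MPN domain, was at 228, 241, 241 and 231 FPKM in the vehicle libraries and 450.3, 436, 446 and 438 FPKM in the JIB-04 libraries. EIF3H rose, with every JIB-04 library above every vehicle library (log2 fold change 0.91 ± 0.034 by limma, adjusted p = 2.62e-08). EIF3A, the large scaffold subunit, was at 171, 176, 187 and 215 FPKM in the vehicle libraries and 319, 312, 316 and 299.8 FPKM in the JIB-04 libraries. EIF3A rose, with every JIB-04 library above every vehicle library (log2 fold change 0.74 ± 0.068 by limma, adjusted p = 8.05e-06). EIF3I, a WD-repeat subunit, was at 322, 353, 341 and 329.7 FPKM in the vehicle libraries and 462, 476, 501 and 491 FPKM in the JIB-04 libraries. EIF3I rose, with every JIB-04 library above every vehicle library (log2 fold change 0.52 ± 0.042 by limma, adjusted p = 3.15e-06). EIF3D, a subunit that can itself bind the cap of some mRNAs, was at 411, 416, 421 and 389 FPKM in the vehicle libraries and 559, 569, 592 and 596 FPKM in the JIB-04 libraries. EIF3D rose, with every JIB-04 library above every vehicle library (log2 fold change 0.50 ± 0.038 by limma, adjusted p = 2.15e-06).

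The remaining eIF3 subunits that rose were EIF3J, the loosely held subunit (0.49 on the log2 scale), EIF3F, the other MPN subunit (0.38), EIF3E (0.38) and EIF3M (0.27), both subunits with a PCI domain, and EIF3B, the RNA-binding scaffold (0.23). EIF3K (-0.51), EIF3G (-0.42), EIF3CL (-0.35) and EIF3C (-0.30) fell. EIF3L, the partner of EIF3K in the complex, gave a log2 fold change 0.098 ± 0.054 by limma, adjusted p = 0.132, and passed upward in TPM. EIF3C and EIF3CL are near-identical genes that share 96.8% of 50-base transcript windows with other genes for EIF3C, and reads may have been split between them or left out, so both values are uncertain. The call of EIF3C was lost in TPM, where 10 eIF3 genes rose and 3 fell. Summed over the 14 entries, the level was 4342 to 4833 FPKM with vehicle and 5475 to 5801 FPKM with JIB-04.

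Of the 12 eIF4 genes tested, 3 rose, 5 fell and 4 did not pass, and in TPM 4 rose and 2 fell. Among all genes, 34.2% rose and 38.0% fell in FPKM, and 40.4% and 31.1% in TPM. EIF4E1B, an oocyte relative of eIF4E, was listed at 0 in every library. The RNA helicases moved apart. EIF4A1, the main helicase of the cap complex, was at 2729.7, 2938, 2896 and 2801 FPKM in the vehicle libraries and 2301, 2347, 2448 and 2435 FPKM in the JIB-04 libraries. EIF4A1 fell (log2 fold change -0.25 ± 0.035 by limma, adjusted p = 0.000131), with no overlap between the groups, and the call was lost in TPM. EIF4A2, its paralog, was at 684, 688, 685 and 696 FPKM in the vehicle libraries and 1261, 1228, 1093 and 1275 FPKM in the JIB-04 libraries. EIF4A2 rose, with every JIB-04 library above every vehicle library (log2 fold change 0.82 ± 0.049 by limma, adjusted p = 4.59e-07). EIF4A3, the helicase at the core of the exon junction complex, was at 191, 192, 199.7 and 193 FPKM in the vehicle libraries and 294, 284, 296 and 299.6 FPKM in the JIB-04 libraries. EIF4A3 rose, with every JIB-04 library above every vehicle library (log2 fold change 0.60 ± 0.034 by limma, adjusted p = 3.28e-07). EIF4B, which stimulates the helicase, was at 174, 193, 185 and 195 FPKM in the vehicle libraries and 243, 249, 249 and 259.98 FPKM in the JIB-04 libraries. EIF4B rose, with every JIB-04 library above every vehicle library (log2 fold change 0.42 ± 0.045 by limma, adjusted p = 2.35e-05). EIF4H, a smaller helicase cofactor, had a log2 fold change of -0.13 with limma adjusted p = 0.00499, and turned to 0.033 in TPM, where it did not pass.

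Of the scaffolds that join the cap complex to eIF3, only EIF4G1 passed the test among the 3 measured in FPKM, and in TPM EIF4G2 passed as well, upward. EIF4G1, the main scaffold, was at 606, 567, 560.00 and 534 FPKM in the vehicle libraries and 399.5, 414, 385 and 393 FPKM in the JIB-04 libraries. EIF4G1 fell, with every JIB-04 library below every vehicle library (log2 fold change -0.51 ± 0.044 by limma, adjusted p = 5.41e-06). EIF4G2, a relative that lacks the eIF4E-binding region, was at 2053, 1976, 2150.2 and 2105 FPKM in the vehicle libraries and 2515, 2375, 1835 and 1984 FPKM in the JIB-04 libraries. EIF4G2 libraries overlapped, with JIB-04 replicates 1 and 2 above and 3 and 4 within or below the vehicle range (log2 fold change 0.061 ± 0.093 by limma, adjusted p = 0.576). EIF4G3, the third scaffold, was at 65.3, 68.1, 66.2 and 73.2 FPKM in the vehicle libraries and 70.2, 68.2, 60.98 and 66.3 FPKM in the JIB-04 libraries. EIF4G3 libraries overlapped as well (log2 fold change -0.038 ± 0.058 by limma, adjusted p = 0.575).

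Of the cap-binding proteins, EIF4E3 fell, EIF4E2 was called lower in FPKM but not in TPM, and EIF4E did not pass the test. EIF4E, the main cap-binding protein, was at 29.2, 32.7, 31.7 and 33.9 FPKM in the vehicle libraries and 29.7, 27.2, 28.6 and 32.01 FPKM in the JIB-04 libraries. EIF4E libraries overlapped (log2 fold change -0.12 ± 0.069 by limma, adjusted p = 0.158). The entry EIF4EP2, a pseudogene, held 142 FPKM on average against 30.6 FPKM for EIF4E, and with copies summed the log2 fold change was -0.13 with limma adjusted p = 0.15. EIF4E2, the cap-binding relative linked to repression of translation, was at 95.3, 109, 94.2 and 88.1 FPKM in the vehicle libraries and 87.8, 87.2, 83.7 and 81.95 FPKM in the JIB-04 libraries. EIF4E2 was called lower by a small margin (log2 fold change -0.18 ± 0.065 by limma, adjusted p = 0.034), its groups did not overlap, and the call was lost in TPM and without any of 5 libraries (limma adjusted p 0.054 to 0.085 without vehicle replicates 1, 2 or 3 or JIB-04 replicates 3 or 4). EIF4E3, the least abundant relative, was at 3.82, 3.62, 2.50 and 3.19 FPKM in the vehicle libraries and 1.32, 1.48, 1.13 and 1.44 FPKM in the JIB-04 libraries. EIF4E3 fell, with every JIB-04 library below every vehicle library (log2 fold change -1.03 ± 0.15 by limma, adjusted p = 0.000163). EIF4ENIF1, a nuclear importer of eIF4E, gave a log2 fold change -0.23 ± 0.11 by limma, adjusted p = 0.0745, and passed downward without JIB-04 replicate 1 (-0.29, limma adjusted p = 0.039). Over all eIF4 genes, the summed level was 7050.4 to 7296 FPKM with vehicle and 6849 to 7594 FPKM with JIB-04, and the groups overlapped.

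The 4E-binding proteins, which hold eIF4E away from the scaffolds, are not initiation factors by the naming rule and stand outside the counts above. EIF4EBP1, the best known of them, was at 429.5, 439, 446 and 426 FPKM in the vehicle libraries and 221, 223, 209 and 207 FPKM in the JIB-04 libraries. EIF4EBP1 fell, with every JIB-04 library below every vehicle library (log2 fold change -1.02 ± 0.038 by limma, adjusted p = 2.87e-08). EIF4EBP2, its relative, was at 74.6, 78.02, 75.1 and 73.4 FPKM in the vehicle libraries and 64.6, 63.5, 68.2 and 72.4 FPKM in the JIB-04 libraries. EIF4EBP2 had a log2 fold change of -0.16 (limma adjusted p = 0.0167), and that call was lost in TPM. EIF4EBP3 gave a log2 fold change -0.51 ± 0.22 by limma, adjusted p = 0.0617, and passed downward without vehicle replicate 2 (limma adjusted p = 0.045) or JIB-04 replicate 2 (limma adjusted p = 0.032).

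The late factors held both the largest rises of the family, EIF5A2 and EIF5. EIF5A2, the less abundant eIF5A gene, long studied as amplified in tumours, was at 20.1, 21.4, 18.04 and 23.04 FPKM in the vehicle libraries and 96.9, 90.5, 89.04 and 93.2 FPKM in the JIB-04 libraries. EIF5A2 rose, with every JIB-04 library above every vehicle library (log2 fold change 2.14 ± 0.075 by limma, adjusted p = 1.88e-08). In GENCODE 29 on GRCh38, EIF5A2 lies at chr3:170888415-170908693, EIF5A at chr17:7306999-7312463 and EIF5 at chr14:103333544-103345025. EIF5A, the main eIF5A gene, whose hypusine-bearing product helps initiation, elongation and termination, was at 869.9, 856, 861 and 815 FPKM in the vehicle libraries and 584, 598, 566 and 569 FPKM in the JIB-04 libraries. EIF5A fell, with every JIB-04 library below every vehicle library (log2 fold change -0.55 ± 0.034 by limma, adjusted p = 5.43e-07). EIF5AL1, a copy of EIF5A, was at 61.02, 64.4, 64.1 and 60.3 FPKM in the vehicle libraries and 42.1, 40.5, 44.04 and 45.2 FPKM in the JIB-04 libraries. EIF5AL1 fell, with every JIB-04 library below every vehicle library (log2 fold change -0.53 ± 0.051 by limma, adjusted p = 9.97e-06). EIF5A and EIF5AL1 share sequence, so reads could be split between them. DHPS, the enzyme of the first step of hypusine synthesis, was at 126, 120.01, 118 and 115 FPKM in the vehicle libraries and 72.2, 81.5, 80.7 and 69.6 FPKM in the JIB-04 libraries. DHPS fell, with every JIB-04 library below every vehicle library (log2 fold change -0.66 ± 0.061 by limma, adjusted p = 8.5e-06). DOHH, the enzyme of the second step, gave a log2 fold change 0.38 ± 0.21 by limma, adjusted p = 0.139 in FPKM, and passed upward in TPM and without JIB-04 replicate 3 (0.54, limma adjusted p = 0.034).

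EIF5, the GTPase activator that triggers hydrolysis on eIF2, was at 520.1, 523, 522 and 546 FPKM in the vehicle libraries and 1231, 1225, 1209.6 and 1179 FPKM in the JIB-04 libraries. EIF5 rose, with every JIB-04 library above every vehicle library (log2 fold change 1.20 ± 0.031 by limma, adjusted p = 3.92e-09). EIF5B, the GTPase that joins the large subunit, was at 43.2, 45.6, 45.4 and 64.7 FPKM in the vehicle libraries and 80.2, 71.2, 75.4 and 75.5 FPKM in the JIB-04 libraries. EIF5B rose, with every JIB-04 library above every vehicle library (log2 fold change 0.62 ± 0.12 by limma, adjusted p = 0.00112). Vehicle replicate 4 of EIF5B stood above the other vehicle libraries and below the JIB-04 libraries. EIF6, which keeps free large subunits from joining, gave a log2 fold change -0.078 ± 0.039 by limma, adjusted p = 0.101, and passed downward without vehicle replicate 4 (-0.11, limma adjusted p = 0.0127). The summed level of the eIF5 and eIF6 genes was 1843 to 1879 FPKM with vehicle and 2301 to 2369 FPKM with JIB-04.

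Promoter sequences of members that moved in opposite directions were compared for the E-box CACGTG, the core site of MYC and related factors, which reads the same on both strands. RefSeq (GRCh38.p14) gave a window of 250 bases before to 50 after the start for 39 of the 47 tested members. Of these, 10 (25.6%) held CACGTG, against 7.43% of 27305 promoters of the same length, and they were 5 of 18 that rose, 4 of 13 that fell and 1 of 8 that did not pass. The median GC content was 64.3% for members and 58.3% for all promoters, and no test was made. The pattern TGATGNAA of ATF4-type sites, searched on both strands, was in 0 of the 39 and in 3.67% of all promoters, which says only that these letters are not in these windows. The 60-base stretches are those of 3 members whose window overlaps no annotated exon. These are EIF5A2 with the largest rise, EIF2B3 with a fall, and EIF4H with a small fall in FPKM that turned in TPM. The stretches are written 5′ to 3′ on the gene's strand with CACGTG in capitals. They lie at chr3:170908767-170908826 (minus strand), chr1:44986742-44986801 (minus strand) and chr7:74174130-74174189 (plus strand). A match is a description of the letters and not a site of binding.
EIF5A2: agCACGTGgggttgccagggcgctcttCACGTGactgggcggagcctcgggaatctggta
EIF2B3: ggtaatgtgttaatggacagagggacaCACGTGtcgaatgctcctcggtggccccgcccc
EIF4H: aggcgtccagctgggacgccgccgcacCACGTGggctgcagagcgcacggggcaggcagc

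Ratios between relatives within a library cancel the scaling of the library, apart from the pseudocount of 0.5 FPKM, which weighs most on low genes such as EIF4E3, and 10 pairs were compared by an exact two-sided permutation test. In 8 pairs the groups did not overlap, with an exact permutation p of 0.0286 each, the smallest that 4 against 4 can give, and 0.0357 after Benjamini-Hochberg adjustment over the 10. Of all genes tested, 67.3% did not overlap on their own, and no background of other pairs was made. Genes that separate in opposite directions, such as EIF5A2 and EIF5A or EIF4A2 and EIF4A1, give a ratio that must separate too. The pairs were chosen with earlier results of these data known, so the count is not evidence about them. Pairs that share a gene, such as those with EIF4E, are not independent of each other. The log2 ratio of EIF5A2 to EIF5A was -5.40, -5.29, -5.54 and -5.12 in the vehicle libraries and -2.59, -2.72, -2.66 and -2.60 in the JIB-04 libraries, a difference of 2.69. EIF5A2 stayed the lesser of the pair in every library. The log2 ratio of EIF4A2 to EIF4A1 was -1.997, -2.09, -2.08 and -2.01 in the vehicle libraries and -0.87, -0.93, -1.16 and -0.93 in the JIB-04 libraries, a difference of 1.07. EIF4A1 remained the more abundant helicase in all 8 libraries.

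Among the cap complex, the log2 ratio of EIF4EBP1 to EIF4E was 3.86, 3.73, 3.79 and 3.63 in the vehicle libraries and 2.88, 3.01, 2.85 and 2.67 in the JIB-04 libraries, a difference of -0.90. These levels rest on an EIF4E entry with most of its summed signal in copies. With copies summed, the mean ratio of EIF4EBP1 to EIF4E was 2.37-fold with vehicle and 1.28-fold with JIB-04, against 13.5-fold and 7.22-fold for the entries alone, and the log2 difference was -0.89. The ratio of EIF4EBP2 to EIF4EBP1 differed by 0.85, that of EIF4G2 to EIF4G1 by 0.57, that of EIF4G3 to EIF4G1 by 0.47, that of EIF4E3 to EIF4E by -0.92 and that of EIF5B to EIF5 by -0.58, all as log2 ratios with JIB-04 minus vehicle. The pairs that overlapped were EIF1B with EIF1 (-0.039, exact permutation p = 0.514) and EIF4E2 with EIF4E (-0.061, exact permutation p = 0.457), which does not show that these ratios were equal.

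**Figure D3:**
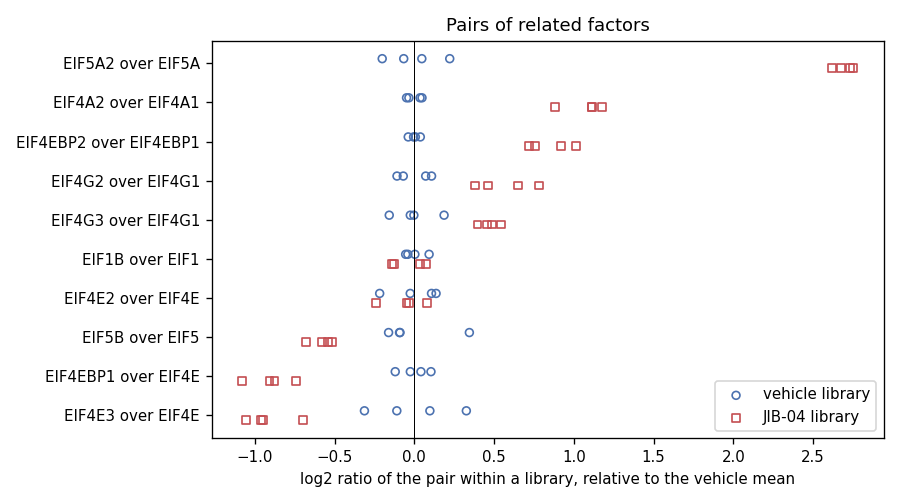
Log2 ratio of each of the 10 pairs within a library, minus the mean of the vehicle libraries, with circles for vehicle and squares for JIB-04 libraries. The groups are apart in 8 pairs, from EIF5A2 over EIF5A (2.69) to EIF4E3 over EIF4E (-0.92), and overlap for EIF1B over EIF1 and EIF4E2 over EIF4E.

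Entries that are copies of initiation factor genes were a sizeable part of the signal. The search found 72 pseudogene entries, named after members or after the 4E-binding proteins EIF4EBP1 (1 entry) and EIF4EBP2 (3 entries). The share of copies in the summed level of gene and copies was 47.2% for EIF2S2, 47.0% for EIF3F, 44.6% for EIF4H and 32.3% for EIF4B. For EIF4A1 it was 21.4%, and all of its 50-base windows occur in another annotated gene as well. The share of sequence that a read cannot tell apart depends on its length, for which the methods give 50 bases and the labels a longer read. With 50-base windows, 14 of the 47 tested members shared at least 10% with another gene. Among the 33 that shared less, 19 rose (57.6%), 9 fell (27.3%) and 5 did not pass. Of all members tested 44.7% rose and 31.9% fell, and of all genes tested 34.2% and 38.0%. No test was made of these shares. With windows of the longer read length 7 members shared at least 10% (EIF3C, EIF3CL, EIF3L, EIF4A1, EIF4B, EIF4E and EIF6). Among the other 40 members 20 rose, 12 fell and 8 did not pass. For EIF3L, EIF4A1 and EIF6, the gene that shared the most 50-base windows was not an entry named as a copy. For EIF4B the shared part was 66.1% with the shorter and 15.5% with the longer windows, and for EIF5A 31.4% and 6.35%. With every copy added to its parent, 22 members rose and 13 fell. EIF2S3L, EIF3CL and EIF5AL1 were then part of EIF2S3, EIF3C and EIF5A and not counted apart, and no remaining member lost its call.

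**Figure D4:**
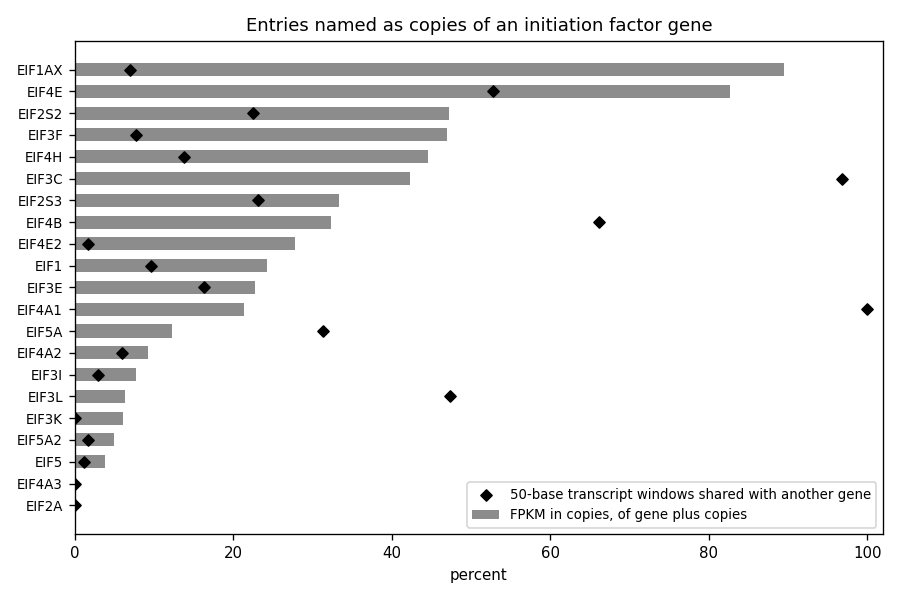
Share of FPKM held by entries named as copies, in percent of gene plus copies (bars), and share of the gene's 50-base transcript windows that another annotated gene also holds, in percent (diamonds). EIF1AX (89.5%) and EIF4E (82.6%) have the highest bars.

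Regulators of eIF2 changed in both directions, with 3 of 6 higher and 3 lower, where 34.2% of all genes were higher and 38.0% lower. PPP1R15A, the stress-induced subunit that brings a phosphatase to the eIF2 alpha subunit, was at 37.8, 35.8, 34.8 and 35.8 FPKM in the vehicle libraries and 1017, 1076, 974 and 1008 FPKM in the JIB-04 libraries. PPP1R15A rose, with every JIB-04 library above every vehicle library (log2 fold change 4.80 ± 0.043 by limma, adjusted p = 4.22e-11). PPP1R15B, its constitutive relative, was at 45.2, 47.5, 46.1 and 47.1 FPKM in the vehicle libraries and 78.05, 78.8, 87.4 and 84.7 FPKM in the JIB-04 libraries. PPP1R15B rose, with every JIB-04 library above every vehicle library (log2 fold change 0.81 ± 0.05 by limma, adjusted p = 5.35e-07). EIF2AK1, the haem-regulated eIF2 alpha kinase, was at 135, 136, 137 and 133 FPKM in the vehicle libraries and 81.5, 84.2, 76.6 and 82.1 FPKM in the JIB-04 libraries. EIF2AK1 fell, with every JIB-04 library below every vehicle library (log2 fold change -0.73 ± 0.041 by limma, adjusted p = 2.94e-07). Of the 4 kinases, named after their values were seen, EIF2AK2 (-0.80) and EIF2AK4 (-0.84) fell too and EIF2AK3, the kinase of the endoplasmic reticulum, rose (1.21), in log2 fold change.

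Of 13 regulators of mTORC1 and the cap complex, 5 rose, 7 fell and 1 did not pass. The background was 34.2% of all genes higher and 38.0% lower, and the list was not tested against it. DDIT4, a stress-induced inhibitor of mTORC1, was at 18.6, 16.1, 18.5 and 19.1 FPKM in the vehicle libraries and 103, 103, 89.8 and 93.3 FPKM in the JIB-04 libraries. DDIT4 rose, with every JIB-04 library above every vehicle library (log2 fold change 2.39 ± 0.072 by limma, adjusted p = 8.38e-09). TSC1, a subunit of the complex that inhibits mTORC1, was at 17.4, 17.3, 17.3 and 16.9 FPKM in the vehicle libraries and 48.6, 48.2, 50.03 and 44.2 FPKM in the JIB-04 libraries. TSC1 rose, with every JIB-04 library above every vehicle library (log2 fold change 1.44 ± 0.053 by limma, adjusted p = 2.67e-08). PDCD4, an inhibitor of the eIF4A helicase, was at 8.69, 10.7, 10.3 and 10.3 FPKM in the vehicle libraries and 40.5, 36.6, 44.8 and 42.2 FPKM in the JIB-04 libraries. PDCD4 rose, with every JIB-04 library above every vehicle library (log2 fold change 1.99 ± 0.085 by limma, adjusted p = 6e-08). These 3 are inhibitors, and the rest of the list, named here after its values were seen, ran both ways. RHEB, the activator of mTORC1 (0.85 in log2 fold change), and RPS6KB1, a kinase downstream of it (0.96), also rose. The 7 that fell were MTOR, the kinase itself (-0.45), its partners RPTOR (-0.63) and MLST8 (-1.31), TSC2, the partner of TSC1 (-0.54), RPS6KB2 (-0.72), MKNK1, a kinase of eIF4E (-0.44), and LARP1, an RNA-binding protein under mTORC1 (-0.69). MKNK2 (0.19) did not pass in FPKM and passed upward in TPM, where 6 of the 13 rose and 7 fell.

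Among 5 poly(A)-binding proteins and partners, 2 rose, 2 fell and 1 did not pass in FPKM, and 2 rose and 1 fell in TPM. For these and the next list, the background was 34.2% of all genes higher and 38.0% lower in FPKM. PAIP2, which displaces poly(A)-binding protein, was at 104, 106, 106 and 114 FPKM in the vehicle libraries and 210.3, 203, 206 and 216 FPKM in the JIB-04 libraries. PAIP2 rose, with every JIB-04 library above every vehicle library (log2 fold change 0.95 ± 0.042 by limma, adjusted p = 6.63e-08). PABPC4, a poly(A)-binding protein, was at 210.1, 243, 209 and 228 FPKM in the vehicle libraries and 144, 150.9, 155 and 137 FPKM in the JIB-04 libraries. PABPC4 fell, with every JIB-04 library below every vehicle library (log2 fold change -0.60 ± 0.061 by limma, adjusted p = 1.56e-05). PABPC1, the main cytoplasmic poly(A)-binding protein, had a log2 fold change of 0.23 (limma adjusted p = 0.000513). Of 5 other initiation and recycling proteins, 4 rose and 1 fell in FPKM, and 4 rose and 0 fell in TPM. DDX3X, a helicase for structured leaders, was at 306, 337, 339.9 and 386 FPKM in the vehicle libraries and 650.00, 603, 594 and 596 FPKM in the JIB-04 libraries. DDX3X rose, with every JIB-04 library above every vehicle library (log2 fold change 0.84 ± 0.067 by limma, adjusted p = 3.13e-06). DHX29, a helicase on the small subunit, was at 20.5, 22.6, 24.4 and 29.5 FPKM in the vehicle libraries and 55.1, 56.6, 65.4 and 57.8 FPKM in the JIB-04 libraries. DHX29 rose, with every JIB-04 library above every vehicle library (log2 fold change 1.27 ± 0.11 by limma, adjusted p = 4.61e-06). DENR, which acts in reinitiation and recycling, had a log2 fold change of 0.53 (limma adjusted p = 0.000104).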

How the data were processed

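Polyadenylated RNA of 8 A673 libraries was sequenced, and per the submitters' processing notes GSNAP, SAMtools and Cufflinks were used with GRCh38. The authors deposited gene-level FPKM, with no counts, and how reads that match several genes were divided is not stated. Groups came from the treatment labels. From the deposited values, log2(FPKM + 0.5) was tested for genes averaging 1 FPKM or more with limma 3.58.1 in R 4.3.3 (trend of variance on level, two-sided, Benjamini-Hochberg over 17460 genes, threshold 0.05), after a check on simulated data. Date-like names (33) were restored to gene symbols, and 13 genes with placeholder values were left out. Pairs used exact permutation tests, whose smallest p is 0.0286. Per-library values were given for the 4 members with the smallest adjusted p in each group, for members of pairs, and for up to 3 genes of each related list. Shared sequence was counted in transcript windows of GENCODE 29. The members, lists and tests were chosen with earlier results of these data known. Alternatives were other pseudocounts, filters and scalings, an untransformed linear model, a replicate block, and leaving out each library. Summed copies, for genes and pairs, and leaving out members with shared sequence were added after seeing the data.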

Additional observations from a re-analysis of the deposited data

Results flagged for a closer look

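Among the tested members, 94 groups of 4 libraries were examined for a library far from the other 3, and 5 of the 94 stood out. About 1 in 20 would do so by chance, so the share flagged was near that rate. EIF1AD was at 76.7 FPKM in vehicle replicate 4, against 81.7 to 81.9 FPKM in the other 3 libraries of its group. EIF2B3 was at 43.8 FPKM in JIB-04 replicate 2, against 47.4 to 47.98 FPKM in the other 3 libraries of its group. EIF5 was at 546 FPKM in vehicle replicate 4, against 520.1 to 523 FPKM in the other 3 libraries of its group. EIF5B was at 64.7 FPKM in vehicle replicate 4, against 43.2 to 45.6 FPKM in the other 3 libraries of its group. EIF6 was at 333 FPKM in vehicle replicate 4, against 362 to 365 FPKM in the other 3 libraries of its group. Of these, 4 were in vehicle replicate 4. Without that library, the log2 fold change was 0.75 for EIF5B and 1.21 for EIF5, and both passed the test. EIF6, which did not pass with all libraries, then did (-0.11, limma adjusted p = 0.0127).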

How the results depend on the processing

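Of the 47 members, 30 kept their direction and their side of the threshold under every alternative planned that tested them, and 6 of the 36 called lost their call or turned in at least 1. EIF4E3, among the 30, was left out by the filter of 5 FPKM and so was not assessed there. Leaving out each library in turn gave 20 to 21 members higher and 14 to 16 lower; for the pairs whose groups do not overlap, such a step cannot turn the sign and was not read as a check. With copies summed, EIF1B over EIF1 turned to 0.017 (exact permutation p = 0.886) and the other pairs kept their sign and side of the threshold. Leaving out members that share at least 10% of 50-base windows took the count from 21 to 19 higher and from 15 to 9 lower. With windows of the longer read length it was 20 higher and 12 lower. Both steps removed more lower than higher calls, and the reason for that was not tested. In TPM, values turned for EIF2S3L (0.15), EIF4E (0.046), EIF4G3 (0.12), EIF4H (0.033), EIF6 (0.086) and EEF2 (0.13), and with median-ratio scaling for EIF2S3L (0.047), EIF4G3 (0.022) and EEF2 (0.029). Leaving out 1 library turned EIF2B5 (-0.028 without vehicle replicate 4, range -0.028 to 0.058), EIF2S3L (0.0039 without vehicle replicate 2 and 0.017 without JIB-04 replicate 2, range -0.042 to 0.017), EIF4G2 (-0.013 without JIB-04 replicate 1, range -0.013 to 0.14), and, without JIB-04 replicate 3, EIF4G3 (0.0020, range -0.065 to 0.002) and EEF2 (0.015, range -0.075 to 0.015). EIF4H was the only one of these called in FPKM. The cause was not tested. With the replicate number as a block, 20 members were higher and 15 lower, and EIF2B2 lost its call (limma adjusted p = 0.0636). Deviations of same-numbered libraries had correlations of -0.058 to 0.082, and 0 of 4 vehicle libraries correlated best with their own number, so the numbers were not read as pairs. For the ratios a block leaves the value as it is, and a sign-flip test of 4 pairs cannot go below an exact p of 0.125. FPKM without counts give no interval for low genes such as EIF4E3.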

Other observations

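Of 10 elongation and release genes, 6 fell, 3 rose and 1 did not pass in FPKM, where 38.0% of all genes fell and 34.2% rose. In TPM 5 fell and 3 rose, where 31.1% of all genes fell and 40.4% rose. No test was made of these shares. ETF1, the release factor that reads stop codons, was at 177, 193, 198 and 204 FPKM in the vehicle libraries and 343, 325, 334 and 342 FPKM in the JIB-04 libraries. ETF1 rose, with every JIB-04 library above every vehicle library (log2 fold change 0.80 ± 0.048 by limma, adjusted p = 4.66e-07). EEF2K, the kinase that inhibits eEF2, was at 9.08, 10.8, 8.75 and 8.99985 FPKM in the vehicle libraries and 3.48, 3.98, 3.43 and 3.57 FPKM in the JIB-04 libraries. EEF2K fell, with every JIB-04 library below every vehicle library (log2 fold change -1.26 ± 0.093 by limma, adjusted p = 1.77e-06). EEF1B2, an exchange factor of eEF1A, was at 449.7, 523, 488 and 502 FPKM in the vehicle libraries and 368, 345, 376 and 371 FPKM in the JIB-04 libraries. EEF1B2 fell, with every JIB-04 library below every vehicle library (log2 fold change -0.43 ± 0.052 by limma, adjusted p = 5.5e-05). EEF2, the translocation factor, gave a log2 fold change -0.032 ± 0.066 by limma, adjusted p = 0.679.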
